A study of Mus musculus with 4 samples.

Results

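The genes Hk1, Hk2, Pfkm, Pfkl, Pfkp, Eno3, Pgam2, Pkm, Ldha and Ldhb encode glycolytic enzymes whose paralogues or spliced forms can replace one another as muscle forms. They were named as a list and found by matching runs of exon and intron lengths of the assembled transcripts to a mouse annotation. All 10 were assembled in each library, among 12868 genes that had a value in at least 1 library. The cells were C2C12, an established mouse skeletal myoblast line that leaves the cell cycle and fuses into myotubes once serum is lowered. Poly(A) RNA was taken at -24 h, during exponential growth in medium with 20% fetal bovine serum, and at 60 h, 120 h and 168 h after the change to low serum, which was made at confluence. Each time point had 1 library of paired reads of 76 bases, so no difference below has a replicate check and none has a p-value. The growing and the differentiating cells also differed in serum, density and time, which cannot be told apart.

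Glycolysis turns glucose into pyruvate through a fixed chain of enzymes, and pyruvate can then be reduced to lactate. Hexokinase traps glucose in the cell, phosphofructokinase commits the sugar to the chain, phosphoglycerate mutase and enolase prepare the last phosphate transfer, pyruvate kinase makes pyruvate, and lactate dehydrogenase interconverts pyruvate and lactate. Most of these steps are served by more than one gene, and adult skeletal muscle is known for hexokinase 2, the M-type phosphofructokinase Pfkm, beta-enolase Eno3, the muscle mutase Pgam2 and the M1 form of pyruvate kinase.

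The M1 and M2 forms of pyruvate kinase come from the same gene, Pkm, through a pair of mutually exclusive exons of 167 bases each. Both are shown because the choice between them is read from the introns on their sides. They lie at chr9:59675029-59675195 for M1 and chr9:59675568-59675734 for M2, on the plus strand of GRCm38, in the order M1 then M2. Capitals mark the 64 bases at which they differ, which leaves 61.7% identity.
Pkm exon M1: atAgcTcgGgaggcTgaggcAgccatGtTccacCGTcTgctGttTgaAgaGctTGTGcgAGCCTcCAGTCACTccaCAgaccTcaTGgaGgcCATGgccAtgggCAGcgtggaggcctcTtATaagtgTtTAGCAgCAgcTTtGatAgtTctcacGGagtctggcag
Pkm exon M2: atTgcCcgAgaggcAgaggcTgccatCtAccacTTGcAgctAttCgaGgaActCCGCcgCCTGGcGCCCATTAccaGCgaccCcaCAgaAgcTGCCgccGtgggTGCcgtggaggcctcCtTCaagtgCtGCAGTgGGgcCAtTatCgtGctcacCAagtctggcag

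Promoters are shown for the genes with the largest ratios among the 10, Pgam2 and Pfkm, and for Eno3, the most abundant of the 10 at 168 h through the introns. Each runs from 250 bases before to 50 bases after a start in RefSeq (GRCm38.p6), and all 10 genes had at least 1 such entry. An upstream start and the internal start of Pfkm are both given because the libraries used them differently. Capitals mark matches, on either strand, to the E-box CANNTG, the motif of myogenic basic helix-loop-helix factors, and to the motif of MEF2. The E-box was found in 72.3% of 32851 promoters, the MEF2 motif in 3.19% and both in 2.41%.
Pgam2 promoter, chr11:5803747-5804046, minus strand: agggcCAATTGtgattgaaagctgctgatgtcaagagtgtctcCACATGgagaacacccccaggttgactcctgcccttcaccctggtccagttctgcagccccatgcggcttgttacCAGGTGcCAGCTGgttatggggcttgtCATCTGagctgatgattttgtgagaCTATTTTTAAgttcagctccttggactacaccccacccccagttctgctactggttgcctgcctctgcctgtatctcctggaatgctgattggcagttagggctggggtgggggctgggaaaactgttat
Eno3 promoter, chr11:70656926-70657225, plus strand: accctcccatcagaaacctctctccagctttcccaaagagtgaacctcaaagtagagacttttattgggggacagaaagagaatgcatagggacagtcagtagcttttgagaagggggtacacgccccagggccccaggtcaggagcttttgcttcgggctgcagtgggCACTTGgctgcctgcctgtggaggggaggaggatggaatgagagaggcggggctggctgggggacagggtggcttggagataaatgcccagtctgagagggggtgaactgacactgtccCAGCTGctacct
Pfkm upstream promoter, chr15:98108221-98108520, plus strand: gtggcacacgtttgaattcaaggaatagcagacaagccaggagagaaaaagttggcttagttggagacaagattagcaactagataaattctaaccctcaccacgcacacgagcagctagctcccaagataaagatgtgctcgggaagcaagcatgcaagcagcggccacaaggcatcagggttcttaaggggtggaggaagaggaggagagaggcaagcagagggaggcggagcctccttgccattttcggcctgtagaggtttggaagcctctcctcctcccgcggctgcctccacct
Pfkm internal promoter, chr15:98111810-98112109, plus strand: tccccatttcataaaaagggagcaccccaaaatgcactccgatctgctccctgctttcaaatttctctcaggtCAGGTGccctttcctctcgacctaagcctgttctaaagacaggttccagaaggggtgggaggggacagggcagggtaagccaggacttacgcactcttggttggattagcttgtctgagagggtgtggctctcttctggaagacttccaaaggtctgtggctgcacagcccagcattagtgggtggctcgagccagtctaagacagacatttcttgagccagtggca
The Pgam2 window held 5 E-boxes, and the only MEF2 match among the RefSeq windows of all 10 genes, CTATTTTTAA, at position -80 from the start. Eno3 had 2 E-boxes, the internal Pfkm start had 1, and the upstream window shown had 0. The other 2 upstream windows of Pfkm in RefSeq, which are not shown, held 1 and 3. A match says only that these letters are in the window.

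Levels are in FPKM, fragments per kilobase of assembled transcript scaled to library size, so they can be set beside each other between genes. The growth, 60 h, 120 h and 168 h libraries held 28513977, 48228889, 24488682 and 43845264 fragments. The sign ± gives the distance to the deposited confidence limit, which covers no variation between cultures. A gene's level is the sum over its transcripts. Where assembly split a gene into several pieces, the sum adds all of them. A level through the introns is therefore given beside it: each intron takes the FPKM of every transcript that contains it, and the gene takes the median of its introns. The words rose and fell are used for a ratio of FPKM + 1 of 2-fold or more between a pair of libraries, with 1 FPKM or more in the higher library and deposited intervals that do not meet. Adding 1 FPKM understates the change of low genes. Markers of myotubes (Myog, Ckm, Acta1, Myh3, Tnnt1 and Actc1) summed to 52.2, 9303, 11908 and 10194 FPKM in the growth, 60 h, 120 h and 168 h libraries, and those of growing cells (Mki67, Top2a, Ccnb1, Cdk1 and Ccna2) to 356, 115.5, 48.6 and 19.6 FPKM. Of other cells that a culture could hold, the adipocyte markers Adipoq, Cidec and Plin1 had no named transcript in any library. Nor had the leukocyte markers Ptprc and Adgre1 and the endothelial markers Pecam1 and Kdr. The glycolytic genes Gapdh, Pgk1 and Pgam1 had none either, and a missing name does not show that RNA was absent. The list of adipocytes summed to at most 0.750 FPKM. That of macrophages summed to 1.14, 4.72, 4.83 and 4.72 FPKM, of which Cd68 had 0.308, 4.15, 4.83 and 4.41 FPKM, and that of endothelium to 0, 5.67, 10.4 and 6.02 FPKM, of which Vwf had 0, 5.34, 10.4 and 5.72 FPKM. Cd68 and Vwf, named after their values were seen, rose at 60 h against growth by the sum and did not pass the limit there through the introns. At 168 h against growth both rose by both measures. Cd68 also rose at 168 h against 120 h through the introns alone. The part of such cells in the results was not tested. In these bulk libraries more cells of a kind and more RNA per cell cannot be told apart.

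Against growth, 4 of the 10 genes rose at 60 h (Hk2, Pfkm, Pfkl and Pgam2) and 0 fell. Of all 12546 genes compared, 11.0% rose and 15.4% fell. The 4 genes also rose through the introns, where 11.0% of all genes rose and 11.4% fell. The median log2 ratio was 0.52 over the 10 genes and -0.18 over all genes. At 120 h against 60 h, 3 rose (Hk2, Pgam2 and Ldhb) and 0 fell, beside 12.4% and 3.84% of all genes, and through the introns 2 rose (Pgam2 and Ldhb), beside 4.08% and 4.51% of all genes rising and falling. At 168 h against 120 h, 0 rose and 1 fell (Pfkp), beside 4.14% and 9.99% of all genes. Through the introns Ldhb rose at this step as well, beside 4.39% of all genes rising and 4.23% falling. The comparison of 168 h with growth, which shares both libraries with the steps, had 5 that rose (Hk2, Pfkm, Pfkl, Pgam2 and Ldhb) and 0 that fell, beside 15.6% and 18.5% of all genes. These were the same 5 through the introns, beside 15.6% and 18.3%.

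**Figure D1:**
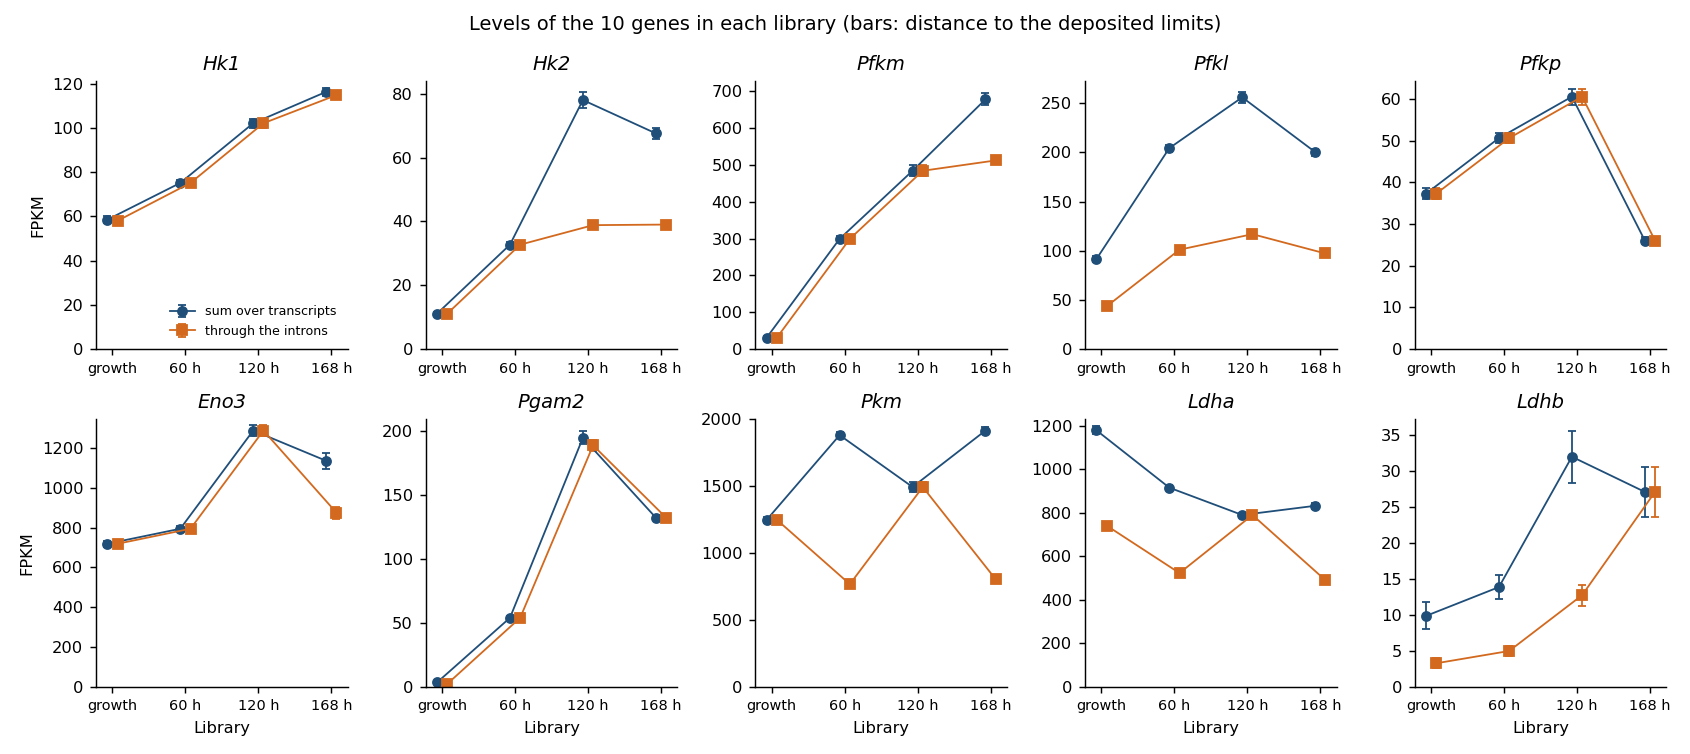
FPKM of each of the 10 genes (vertical axes, each from 0) in the 4 libraries in order of time (horizontal axes), as the sum over transcripts (circles) and through the introns (squares), with bars to the deposited limits. Pfkm and Pgam2 are near the bottom of their axes in growth and far above it at 60 h, while for Pkm and Ldha the order of the libraries differs between the measures.

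Of the hexokinases, Hk2 (chromosome 6, 82675062 to 82724471 in the coordinates of the files, for which no build is named in the sources used here) encodes the form typical of muscle and fat. It had 11.1 ± 0.532, 32.7 ± 0.703, 78.0 ± 2.46 and 67.6 ± 1.61 FPKM in the growth, 60 h, 120 h and 168 h libraries. Through the introns it had 11.1 ± 0.532, 32.7 ± 0.703, 38.8 ± 1.32 and 39.0 ± 0.959 FPKM. At 120 h and 168 h the last part of the gene was assembled as a separate transcript with 1 exon, which the sum counts in full. The rise at 60 h (log2 ratio 1.48 by both measures) therefore does not depend on the measure, and the step at 120 h does, with log2 ratios of 1.23 for the sum and 0.24 through the introns against 60 h. Hk1, the form found in most tissues, had 58.5 ± 1.57, 75.1 ± 1.26, 102 ± 2.00 and 116 ± 1.80 FPKM. It was higher in each later library but below the 2-fold limit in every comparison, most closely at 168 h against growth (log2 ratio 0.98). With libraries rescaled by their median ratio that ratio was 1.17 and Hk1 had risen.

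Hk2 made up 15.9% ± 0.74, 30.3% ± 0.58, 43.3% ± 0.91 and 36.8% ± 0.66 of the summed FPKM of Hk1 and Hk2. By the introns its share was 16.0%, 30.3%, 27.6% and 25.4%. Hk1 remained the more abundant of the pair in all 4 libraries by both measures.

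Phosphofructokinase showed the widest exchange of the paralogue families. Pfkm, the M-type gene (chromosome 15, 97938849 to 97962976), had 31.1 ± 4.49, 299 ± 8.65, 484 ± 14.6 and 678 ± 16.3 FPKM in the growth, 60 h, 120 h and 168 h libraries. It rose at 60 h (log2 ratio 3.23 against growth, 9.63-fold on FPKM) and had log2 ratios of 0.69 and 0.49 at the later steps, under the limit. Through the introns its level at 168 h was 512 ± 10.2 FPKM, and the ratio to 120 h was 0.08 on the log2 scale. At 168 h a transcript of 7 exons lay beside the full ones, and the sum includes it.

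Pfkl, the liver-type gene, had 91.5 ± 3.03, 204 ± 3.41, 256 ± 5.56 and 200.4 ± 3.61 FPKM. It was assembled as a pair of non-overlapping pieces of 9 and 13 exons in all 4 libraries, so its sum counts it in both. Through the introns it had 43.4 ± 2.08, 101 ± 2.44, 117 ± 3.71 and 97.2 ± 2.52 FPKM. By either measure Pfkl rose at 60 h (log2 ratio 1.15 for the sum and 1.20 through the introns) and did not pass the limit afterwards. Pfkp, the platelet-type gene, had 37.3 ± 1.35, 50.6 ± 1.15, 60.5 ± 1.89 and 26.0 ± 0.916 FPKM. It was whole in each library, with 22 exons, and fell at 168 h against 120 h (log2 ratio -1.19 by both measures). Set against growth, the 168 h level had a log2 ratio of -0.50, under the limit.

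The family as a whole, taken through the introns, had 112, 451, 661 and 635 FPKM in the growth, 60 h, 120 h and 168 h libraries. Pfkm took 27.8% ± 3.0, 66.3% ± 0.76, 73.2% ± 0.75 and 80.6% ± 0.46 of it. The share of Pfkl was 38.8%, 22.4%, 17.7% and 15.3%, and that of Pfkp was 33.4%, 11.2%, 9.2% and 4.1%. In growth Pfkl led and Pfkm was the least abundant of the 3, and from 60 h on Pfkm led. By the sums the Pfkm share was 19.4%, 54.0%, 60.4% and 75.0%, with the same leading gene in each library. Pfkl had a lower share in every later library than in growth, although its own level was higher.

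**Figure D2:**
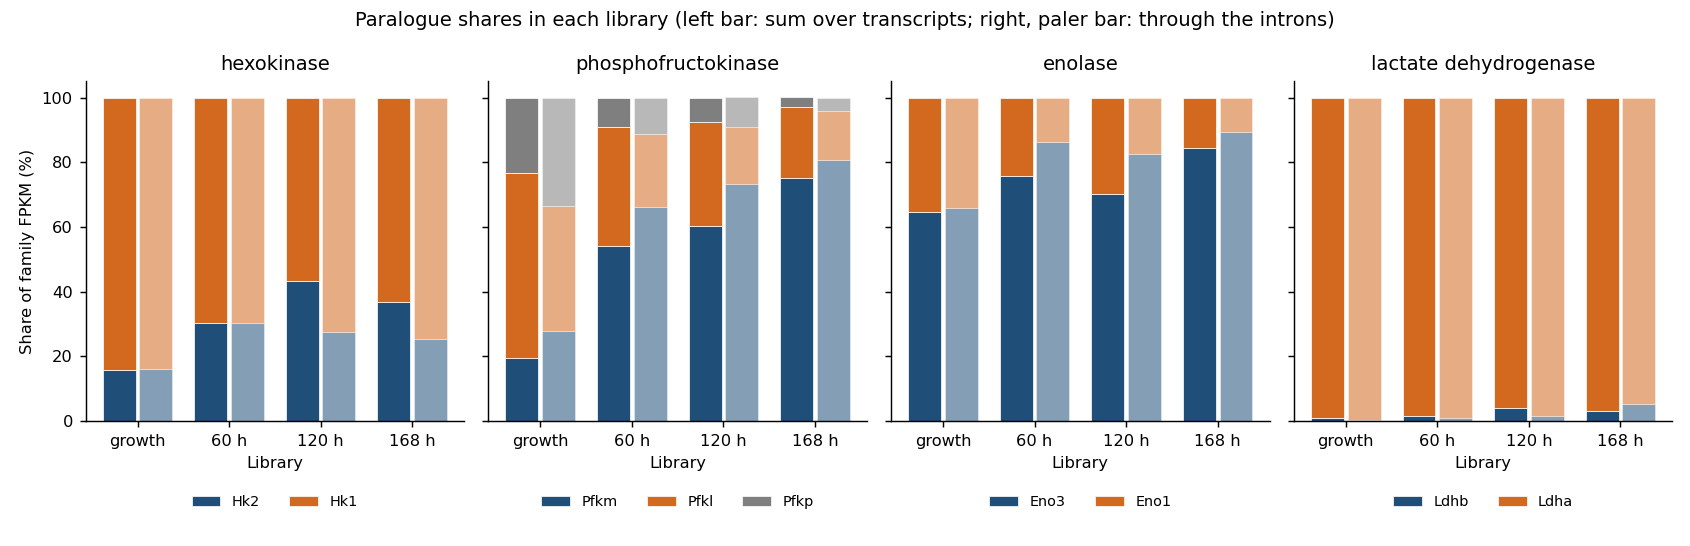
Share of each paralogue in the FPKM of its family (vertical axis, percent) in the 4 libraries (horizontal axis), by the sum over transcripts (left bar of each pair) and through the introns (right, paler bar). Through the introns Pfkm has 27.8% in growth and 80.6% at 168 h, while Ldhb stays at or under 5.2%.

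The Pfkm transcripts began in different first exons. Transcripts from the upstream start, joined by an intron of 3542 bases to the second exon of 93 bases, had 17.7 ± 3.15, 59.9 ± 4.73, 92.9 ± 8.27 and 117 ± 6.45 FPKM in the growth, 60 h, 120 h and 168 h libraries. A second donor of the same region, with an intron of 3493 bases, gave 13.3 ± 3.20, 24.6 ± 3.86, 33.9 ± 6.07 and 166 ± 12.7 FPKM, of which the value at 168 h is the transcript of 7 exons. The forms with this donor were assembled from their own start, at 97939045 or 97939047. Those with the first donor began between 97938849 and 97938917. Transcripts from an internal start, whose first exon of 147 to 153 bases runs into that second exon and uses its donor, were not assembled in growth. They had 215 ± 6.13 FPKM at 60 h, 357 ± 10.4 at 120 h and 395 ± 7.85 at 168 h.

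The internal start therefore gave 0.0%, 71.8% ± 1.6, 73.8% ± 1.7 and 58.3% ± 1.3 of Pfkm FPKM. At 168 h the share was 77.2% over whole transcripts alone. The upstream forms were also higher at 60 h than in growth, 59.9 against 17.7 FPKM for the first donor. In the annotation of RefSeq the internal promoter shown above lies nearest to this start, with 187 bases from its start to the same donor. Pfkm had 40607 fragments at 60 h and 2502 in growth, and no limit of detection was computed for the internal start there.

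**Figure D3:**
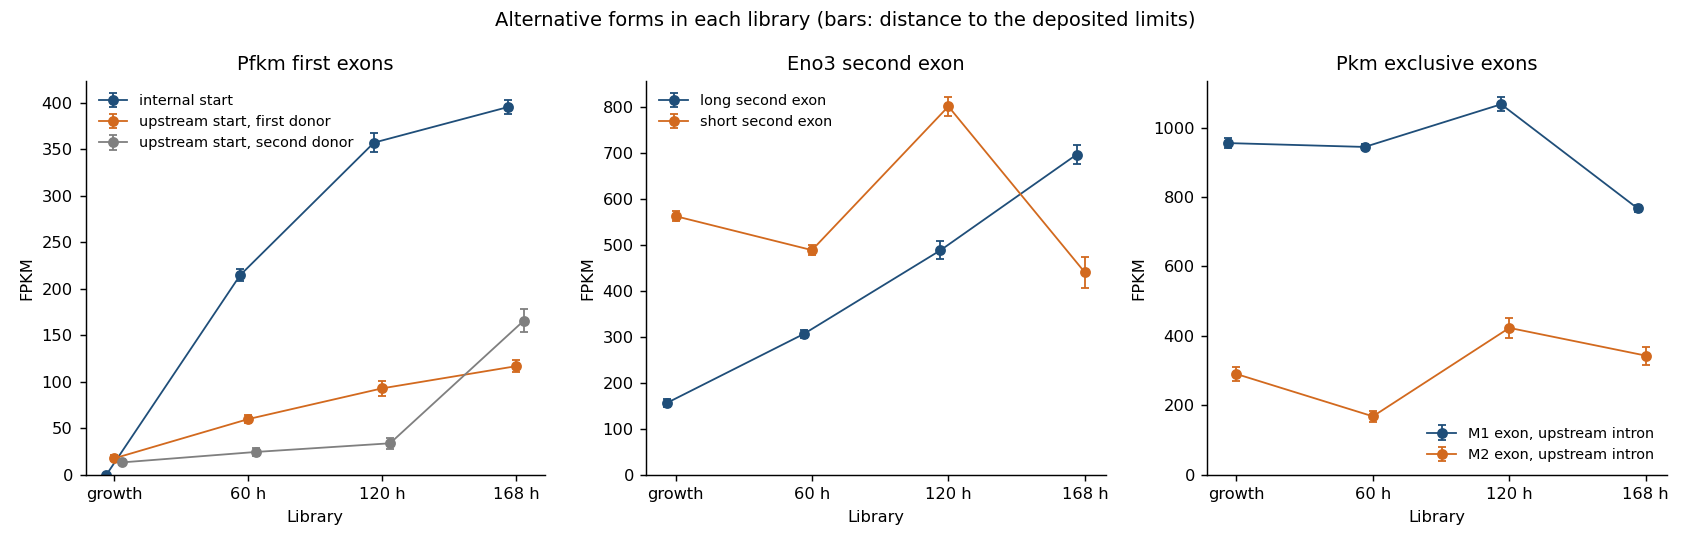
FPKM (vertical axes, from 0) of the first exons of Pfkm, the second exon forms of Eno3 and the exclusive exons of Pkm in the 4 libraries (horizontal axes), with bars to the deposited limits. The internal Pfkm start, not assembled in growth and drawn at 0 there, is the highest form from 60 h on, the Eno3 forms change order at 168 h, and M1 is above M2 throughout.

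Eno3, the beta-enolase gene of muscle (chromosome 11, 70470575 to 70476572), was abundant before differentiation. It had 719 ± 14.0, 795 ± 13.9, 1289 ± 29.0 and 1136.5 ± 39.0 FPKM in the growth, 60 h, 120 h and 168 h libraries, and 876 ± 30.7 FPKM through the introns at 168 h. No comparison passed the limit by either measure, and the log2 ratio of 60 h to growth was 0.14. Of the 10 genes it was the third most abundant in growth and the first at 168 h through the introns. By the sums Pkm stood above it at 168 h.

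Within Eno3 the second exon changed form. The short form has 87 bases after an intron of 604 bases, and the long form has 199 bases after an intron of 492 bases, both annotated. The long form had 157 ± 8.78, 306 ± 9.42, 488 ± 19.5 and 696 ± 20.2 FPKM in the growth, 60 h, 120 h and 168 h libraries. The short form had 562 ± 10.8, 488.5 ± 10.2, 801 ± 21.5 and 440 ± 33.4 FPKM. The long form was higher in each later library, and the short form was not. Its share was 21.8% ± 1.0, 38.5% ± 0.88, 37.8% ± 1.1 and 61.3% ± 1.9, and 79.5% at 168 h over whole transcripts alone.

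Eno1, the paralogue of most other tissues, cannot be measured as well. It was assembled only in pieces of at most 4 exons, and 26.0% of its words of 50 bases occur in other annotated genes, against 0.00% for Eno3. Its sums were 395 ± 8.55, 255 ± 4.36, 550 ± 15.8 and 208 ± 6.04 FPKM, and through the introns it had 374, 127.5, 274 and 104 FPKM. Eno3 made up 64.5% ± 0.67, 75.7% ± 0.45, 70.1% ± 0.77 and 84.5% ± 0.59 of the pair by the sums. Through the introns its share was 65.8%, 86.2%, 82.5% and 89.4%. Eno3 was thus the larger part in growth too, and was higher in every later library by both measures. Over the union of exons the share was 92.5% at 168 h and 81.5% in growth.

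Pgam2, the muscle phosphoglycerate mutase gene (chromosome 11, 5699803 to 5704803), had the largest ratio of the 10. It had 3.29 ± 0.667, 53.8 ± 1.14, 194.5 ± 5.06 and 132 ± 2.04 FPKM in the growth, 60 h, 120 h and 168 h libraries. It rose at 60 h (log2 ratio 3.68 against growth) and again at 120 h (log2 ratio 1.83 against 60 h). At 168 h against 120 h the log2 ratio was -0.55, under the limit. No transcript was named for Pgam1, the paralogue of most other tissues, so no share is given.

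The order of the late libraries rests on how the transcript ended. The annotated transcript has 840 bases, and the assembled one had 3100, 3722, 1562 and 3422 bases. Its span reached 1366, 1589, 0 and 2233 bases into that of Dbnl, the neighbouring gene on the other strand. These bases are counted along the chromosome with introns included. In growth and at 60 h they lay within the last exon of Pgam2, which had 2040 and 2015 bases. At 168 h they ran past that exon, which had 1987 bases. How many of them lie in exons of Dbnl was not counted. A longer transcript lowers a value per kilobase. Divided by the annotated length instead, the same fragments gave 8.67, 238.5, 352 and 538 FPKM. By that value 168 h was the highest library, and 60 h was 27.5 times growth. Fragments on bases outside the annotated transcript stay in these values and were not counted apart. They can raise 168 h above 120 h, where the assembled transcript was the shortest. Over the union of exons, the level at 120 h was 76.9 ± 1.81 FPKM against 52.2 ± 1.10 at 60 h, and the rise at this step was lost (log2 ratio 0.55). By that measure 168 h, with 117.6 ± 1.82 FPKM, was also the highest library, and the fragments outside the annotated bases stay in it too. The libraries do not mark strand as far as the labels say, so the fragments of Dbnl within the shared span cannot be told apart from those of Pgam2. Dbnl itself had 57.6, 26.3, 40.1 and 23.8 FPKM, highest in growth, where Pgam2 was lowest.

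**Figure D4:**
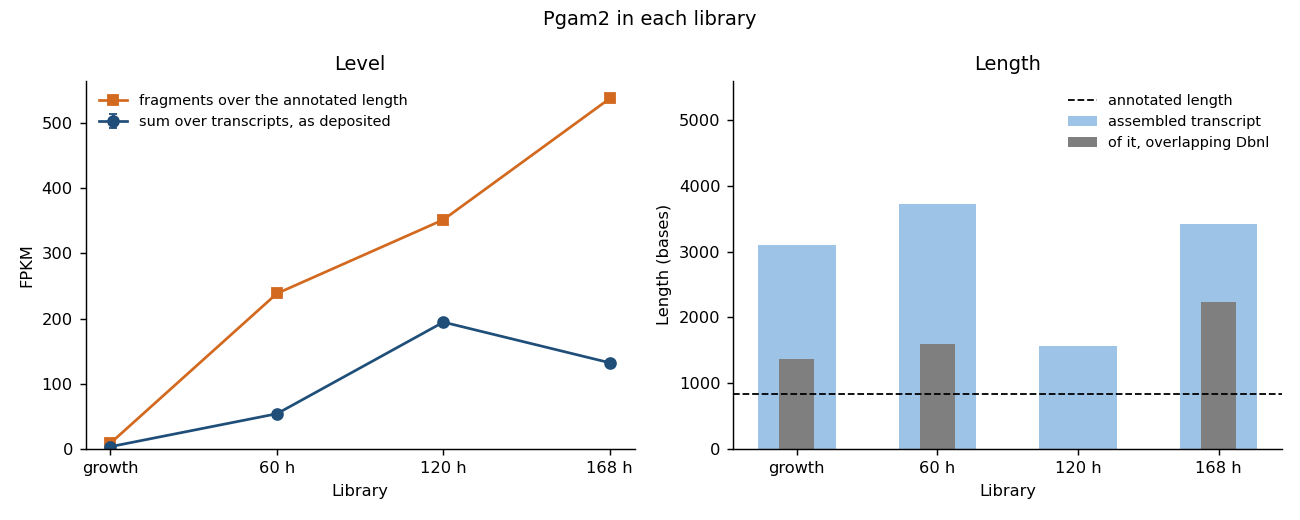
Left, Pgam2 FPKM (vertical axis) in the 4 libraries as deposited and summed over transcripts (circles, with bars to the deposited limits) and with the same fragments over the annotated length (squares). Right, the length in bases of the assembled transcript and of the annotated transcript (dashed line), with the span shared with Dbnl. That span is counted along the chromosome with introns. In growth and at 60 h it lies within the last exon of Pgam2, so it is part of the length, as the key says. At 168 h it runs past that exon, so the key does not hold for all of it. The 120 h transcript is the shortest, at 1562 bases, and shares no span.

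Pkm (chromosome 9, 59504172 to 59527182) was the most abundant of the 10 genes in growth. Its sums were 1245 ± 23.9, 1877.5 ± 20.5, 1490.3 ± 35.8 and 1912 ± 29.3 FPKM in the growth, 60 h, 120 h and 168 h libraries. Through the introns it had 1245 ± 23.9, 765 ± 7.53, 1490.3 ± 35.8 and 801 ± 8.03 FPKM, so the log2 ratio of 60 h to growth was 0.59 by one measure and -0.70 by the other. In growth and at 120 h the gene was assembled as a chain of 11 exons. It was broken after the sixth exon at 60 h, into pieces of 6 and 4 exons, and at 168 h, into pieces of 6 and 5. The sum counts both pieces, and in every library it also counts the transcript with M2. No comparison passed the limit by either measure. Of the words of Pkm, 14.2% occur in 7 other annotated genes, so part of its fragments could not be placed on it alone.

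M1 exceeded M2 in every library by the introns that lead into each exon. The M1 intron of 2955 bases had 955 ± 14.1, 944 ± 8.84, 1067 ± 20.1 and 767 ± 10.7 FPKM in the growth, 60 h, 120 h and 168 h libraries. The M2 intron of 3494 bases had 290.2 ± 19.3, 168 ± 16.8, 423 ± 29.6 and 343 ± 26.1 FPKM. M1 made up 76.7% ± 1.2, 84.9% ± 1.3, 71.6% ± 1.5 and 69.1% ± 1.6 of the 2 introns. The share of M1 was thus higher at 60 h than in growth and lower at 120 h and 168 h than in growth, with intervals that did not overlap. It did not move in one direction over time. The M2 intron lay in transcripts of 9, 2, 9 and 3 exons in the growth, 60 h, 120 h and 168 h libraries. They had 1588, 322, 1482 and 474 bases, so M2 was not measured alike in the libraries. How far this moved the share was not tested.

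These shares hold for 1 side of the exons. The intron of 2309 bases that leaves the M2 exon was assembled in 0 libraries, and the M2 transcripts stopped in a last exon of 169 or 170 bases. All exons after the exclusive pair were thus assembled behind M1 alone. Across the junction that leaves M2, 49 of 49 words of 50 bases occur in other annotated genes, against 10 of 49 across the junction that leaves M1. Across the junctions that lead into the exons, 0 of 49 do for either, and within the exons shown above 26 of 118 do for M2 and 0 of 118 for M1. How much of the M2 message this removed, and how it moved the share, was not tested.

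Ldha, the gene of the lactate dehydrogenase subunit of fast muscle, had sums of 1180 ± 17.6, 916 ± 11.9, 790 ± 8.92 and 832 ± 13.8 FPKM in the growth, 60 h, 120 h and 168 h libraries. It was whole, with 8 exons, at 120 h alone, and elsewhere the first exons were a separate piece. The piece of 6 exons at the end of the gene had 741 ± 8.86 FPKM in growth, 523 ± 5.75 at 60 h and 490.1 ± 5.81 at 168 h, beside 790 ± 8.92 for the whole transcript at 120 h. By neither measure did a comparison pass the limit, and the log2 ratio of 168 h to growth was -0.50 for the sum and -0.60 through the introns.

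Ldhb, the gene of the subunit typical of heart and oxidative fibres (chromosome 6, 142438768 to 142456459), was far lower. Its sums were 9.85 ± 1.89, 13.9 ± 1.68, 32.0 ± 3.64 and 27.1 ± 3.51 FPKM, and through the introns it had 3.26 ± 0.719, 4.97 ± 0.675, 12.7 ± 1.47 and 27.1 ± 3.51 FPKM. It rose at 120 h against 60 h by both measures (log2 ratios 1.15 and 1.20). After median-ratio rescaling the ratio of the sums was 0.96, and with equal totals 0.94, both under the limit. At 168 h against 120 h the log2 ratio was -0.23 for the sum and 1.03 through the introns, which is a rise by the second measure alone. Only 188, 485, 583 and 1486 fragments lie behind these values, and 21.0% of its words occur in another annotated gene, Gm5514.

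The measures part at the end of Ldhb. The annotated exon of 124 bases before the last was assembled between both of its introns at 168 h alone, in a transcript of 8 exons with 20.2 ± 2.47 FPKM. The form that skips it, through an intron of 3495 bases, had 3.26 ± 0.719, 4.97 ± 0.675, 12.7 ± 1.47 and 6.86 ± 2.50 FPKM. In growth, at 60 h and at 120 h the last intron of 1888 bases was a separate piece with 6.59 ± 1.74, 8.89 ± 1.54 and 19.3 ± 3.33 FPKM. In the family, Ldhb took 0.8%, 1.5%, 3.9% and 3.2% of the FPKM by the sums, and 0.4%, 0.9%, 1.6% and 5.2% through the introns. Ldha thus held at least 94.8% in every library by these measures, and 93.8% at 168 h over the union of exons.

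Ordered by the level through the introns, the 10 genes stood in growth as Pkm, Ldha, Eno3, Hk1, Pfkl, Pfkp, Pfkm, Hk2, Ldhb and Pgam2. The intervals of Ldha and Eno3 overlapped there. At 168 h the order was Eno3, Pkm, Pfkm, Ldha, Pgam2, Hk1, Pfkl, Hk2, Ldhb and Pfkp, and the intervals of Ldhb and Pfkp overlapped. Pfkm moved up past Hk1, Pfkl, Pfkp and Ldha, and Pgam2 moved up past 5 genes. These are levels over the assembled transcript. With the annotated length Pgam2 had 8.67 FPKM in growth, above the Ldhb level of the order. At 168 h it had 538 FPKM, above those of Pfkm and Ldha, with fragments outside the annotated bases included. The first place of Eno3 at 168 h holds through the introns alone. By the sums Pkm had 1912 FPKM there and Eno3 1136.5 FPKM. Over the union of exons they had 794 ± 7.95 and 776 ± 25.4 FPKM, with intervals that overlapped.

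The other genes of the pathway were taken as 10 lists of 75 genes, of which 62 could be compared at 60 h and 63 at 168 h. Against growth, 9 rose and 11 fell at 60 h, and 13 rose and 11 fell at 168 h. At 60 h these were 14.5% and 17.7% of the genes compared, beside 11.0% and 15.4% of all genes, and at 168 h 20.6% and 17.5%, beside 15.6% and 18.5%, so the shares lay near those of all genes. That nearness is for values without rescaling. After median-ratio rescaling 15 rose at 60 h, instead of 9, and 7 fell at 168 h, instead of 11. The count of all genes that rose at 60 h grew less in proportion, so for rises at 60 h the nearness did not hold at that setting. Of a list of further enzymes of the chain, which held Eno1 and Eno2 too, 3 of 6 rose and 0 fell at 60 h, and through the introns Eno1 fell as well. Aldoa, the muscle aldolase gene, had 541, 1277, 2263 and 2042 FPKM in the growth, 60 h, 120 h and 168 h libraries. Eno2, the enolase gene known from neurons, had 3.24, 11.2, 27.8 and 24.7 FPKM, and it rose at 60 h and 120 h. No transcript was named for Gapdh or Pgk1. Of the genes of the enzymes that set fructose 2,6-bisphosphate, an activator of phosphofructokinase, 0 of 5 rose and 1 fell at 60 h. That was Pfkfb2, with 7.28, 1.72, 7.33 and 2.88 FPKM, and the call was lost over the union of exons. Pfkfb4, of the same family, had 5.16, 2.83, 6.79 and 2.43 FPKM.

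Among the transporters of sugar and lactate 1 of 7 rose and 0 fell at 60 h, while the intron measure had 3 that rose. The gene called by the sum was Slc2a4, the insulin-regulated glucose transporter, with 2.68 ± 1.38, 8.09 ± 0.506, 14.4 ± 0.956 and 24.2 ± 0.943 FPKM. Slc16a3, a lactate exporter, had 3.30, 6.66, 4.47 and 3.51 FPKM and rose at 60 h through the introns alone. So did Slc2a8, a glucose transporter gene named after its values were seen, with 7.62 FPKM through the introns at 60 h, against 2.91 FPKM in growth. At the entry of pyruvate into mitochondria 2 of 12 rose and 3 fell at 60 h, and through the introns 2 rose and 2 fell. Among those that fell by both measures was Pcx, named after its values were seen. It counts as fallen because no transcript was named for it at 60 h. In the growth, 120 h and 168 h libraries Pcx had 3.71, 19.2 and 28.6 FPKM. Pdk2, a kinase that inhibits pyruvate dehydrogenase, rose, with 3.31, 13.6, 22.2 and 37.7 FPKM. Its paralogue Pdk4 fell, with 32.6, 6.63, 13.1 and 14.3 FPKM, so these kinases moved in opposite directions at 60 h.

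Of 7 regulators known to act on the choice between the Pkm exons, 0 rose and 3 fell at 60 h against growth. Of all genes, 11.0% rose and 15.4% fell there. At 168 h against growth 0 rose and 5 fell, beside 15.6% and 18.5% of all genes. One of the 5, Srsf3, named after its values were seen, had 6.68, 8.96 and 7.68 FPKM up to 120 h. It counts as fallen because no transcript was named for it at 168 h. Ptbp1, a splicing repressor known to favour M2, had 137.5 ± 5.22, 44.5 ± 5.76, 32.6 ± 6.87 and 26.0 ± 4.64 FPKM in the growth, 60 h, 120 h and 168 h libraries. Hnrnpa2b1, another such repressor, had 195 ± 7.47, 76.7 ± 4.96, 70.7 ± 4.10 and 40.4 ± 2.32 FPKM, and through the introns its log2 ratio at 60 h was -0.73, under the limit. Ptbp1 was lower in each later library, while the M1 share was higher at 60 h and lower at 120 h and 168 h than in growth. Whether the 2 are linked was not tested.

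In the pentose phosphate branch, which draws on the product of hexokinase, 0 of 8 rose and 2 fell at 60 h and at 168 h against growth. These were the dehydrogenase genes G6pdx, with 70.5, 28.1, 27.7 and 22.4 FPKM, and Pgd, with 272, 99.1, 117 and 123 FPKM. For Pgd at 168 h the call was lost after median-ratio rescaling (log2 ratio -0.94). Of the shuttles that carry the electrons of cytosolic NADH, 2 of 7 rose and 1 fell at 60 h. Got1, the cytosolic aspartate aminotransferase gene, had 61.9, 147.7, 164.5 and 133.7 FPKM. Gpd2, the mitochondrial glycerol phosphate dehydrogenase gene, had 22.0, 8.43, 24.9 and 16.8 FPKM. Of the genes of reverse steps 1 of 3 rose and 0 fell, namely Pck2, the mitochondrial phosphoenolpyruvate carboxykinase gene, with 60.8, 134.5, 125.4 and 184 FPKM, while G6pc3, a glucose 6-phosphatase gene, had 31.3, 34.8, 46.9 and 52.4 FPKM. Of the transcriptional regulators 0 of 6 rose and 1 fell at 60 h. That was Mlxip, a glucose-responsive factor, with 15.7, 4.17, 4.66 and 5.87 FPKM, but through the introns it had 3.52 FPKM in growth and its log2 ratio was 0.19. Hif1a, the hypoxia factor, had 19.8, 35.3, 20.5 and 19.4 FPKM. Of the last list, further relatives of the enzymes of the 10 genes, Bpgm, a relative of the mutases, was the 1 gene that could be compared at 60 h, and it had 17.6, 18.8, 19.7 and 15.3 FPKM.

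**Figure D5:**
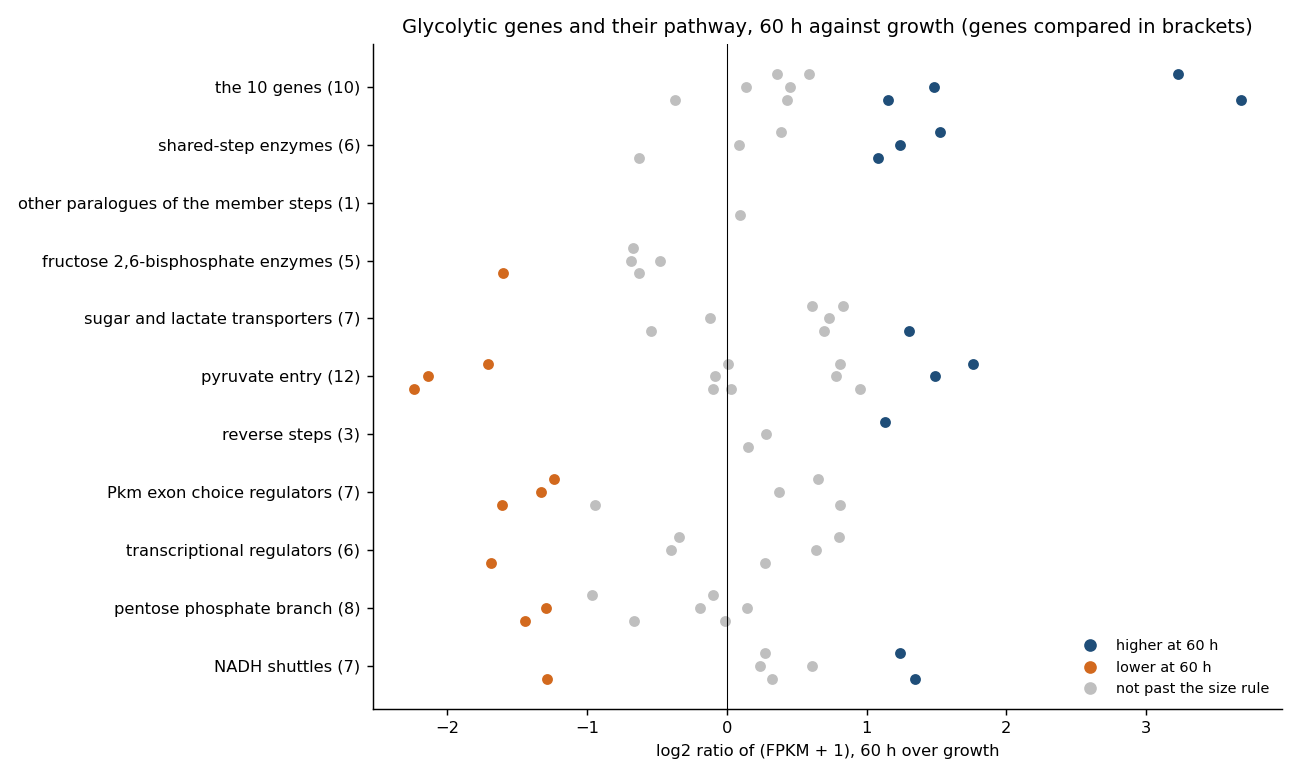
Each point is a gene, placed by its log2 ratio of FPKM + 1 at 60 h over growth (horizontal axis), in rows for the 10 genes and the 10 pathway lists. Pgam2 (3.68) and Pfkm (3.23) lie farthest to the right of all genes drawn, and 3 of the 7 regulators of the Pkm exons lie to the left as fallen.

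The genes with the most similar profiles were sought among 7606 protein-coding genes that reached 10 FPKM in some library, by Euclidean distance of log2(FPKM + 1) centred over the 4 libraries. With 4 points such likeness is a description. For Hk2 they were Eno2 (distance 0.068), Stk11ip (0.236) and Cryab (0.271), a small heat shock protein gene with 128, 439, 809 and 807 FPKM in the growth, 60 h, 120 h and 168 h libraries. The Hk2 profile used here is that of the sum, with its separate piece at 120 h and 168 h. For Eno3 they were Akap6 (0.0516), Pip4k2a (0.0698) and Higd2a (0.0737). For Pgam2 they were Psma5 (0.386), Abra (0.392) and Angptl6 (0.399), which had no named transcript in growth and count as 0 there. For Ldhb they were Srpk2 (0.127), Map1a (0.165) and Cdc123 (0.168). The profiles of Pgam2 and Ldhb are also those of the sums, which are highest at 120 h, whereas 168 h was highest for Pgam2 per annotated length and for Ldhb through the introns.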

How the data were processed

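C2C12 RNA was sequenced in 4 libraries, 1 per time point. The authors deposited assembled transcripts with RPKM and confidence limits, and each line names Cufflinks, per the file headers. Per the submitters' processing notes, TopHat 1.0.13 and Cufflinks 0.8.0 were among the tools, with roles and genome build not given in the sources used here. The deposited RPKM values, another unit than a count, count fragments and are called FPKM here. The limits gave each library's size, with low counts whole within 0.01 for 91.1% to 93.3% of values. The deposited score column was not used.

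Introns were named by runs of lengths against GENCODE M21 (121754 of 137519) or by their own length beside named ones (6282), and a single-exon transcript by at least 50% overlap with a gene's exons. No coordinates of different builds were joined. The members and lists were chosen with earlier results of these data known. Named genes were all 10 members, the 2 genes of each pathway list with the largest ratio at 60 h and at least 5 FPKM, and the nearest profiles. A size rule took the place of a test, since each time point has 1 library. Distances to the limits were added in quadrature. For Pkm the mean over the introns on both sides was planned, but 1 of them has no value, so the upstream introns were used. Words of 50 bases were counted as copied where another gene of the annotation, at another place, holds them. Alternatives were another pseudocount, minimum, scaling, gene measure and fold limit. Python 3.11.15, numpy 2.4.6 and matplotlib 3.10.9 were used, and the naming and calls were tested on simulated data alone. Such data are not the assembled transcripts, so the test cannot show how often naming failed on those. Nor can it show why Gapdh, Pgk1 and Pgam1 had no named transcript. Deposited limits cover counting error and the split between transcripts only.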

Additional observations from a re-analysis of the deposited data

How the results depend on the processing

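No paired analysis was possible because each time point has 1 library, and for the same reason no library could be left out. Of 360 ratios of the 10 genes under 9 alternatives, 344 stayed on their side of the limit, 14 lost the call, 1 gained it (Hk1) and 1 gained it in the opposite direction (Ldhb, 1.03 through the introns at 168 h against 120 h). Leaving out the minimum, or raising it to 5 FPKM, could move no call of these genes. The higher library always had more than 5 FPKM, so the 40 unmoved ratios under each of these settings are no check. Of ratios under the limit 16 changed sign, 8 of Pkm, 4 of Ldha, 2 of Hk2, 1 of Pgam2 and 1 of Ldhb, all by another gene measure. Mlxip reversed to 0.19 (introns) and 0.30 (union of exons) at 60 h against growth, and to 0.60 and 0.68 at 168 h against growth. Over the union of exons Gpd2 reversed to -0.22 at 120 h against 60 h and Pfkfb2 to 0.06 at 168 h against 120 h. The cause was not tested. For Pkm, the intron that leaves M2 had no value, while the one that leaves M1 had a value in each library. The introns that leave the exons, and the exons held between both introns, therefore gave no share. The shares given are those of the upstream introns alone.

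A 4-fold limit left 2, 0, 0 and 3 members higher at 60 h, 120 h, 168 h against the library before and at 168 h against growth, and 0 lower at 168 h against 120 h. By that limit 0, 1, 0 and 5 pathway genes were higher, 2, 1 and 4 were lower at 60 h against growth, 168 h against 120 h and 168 h against growth, and of all genes 504, 213, 149 and 708 were higher and 300, 154, 192 and 618 lower. Over the union of exons 1 member was higher at 120 h, and through the introns 1 at 168 h, both against the library before. Pathway genes higher at 60 h were 15 by median-ratio rescaling. At 120 h 4 (introns) and 2 (union of exons) were higher, and lower were 1 by either rescaling, 2 with multi-exon transcripts alone, 1 (introns) and 2 (union of exons). At 168 h against 120 h 0 were higher over the union of exons, with a minimum of 5 FPKM or by the introns. Over the union of exons 7 were lower at 60 h and 2 at 168 h against 120 h, and 7 were lower at 168 h against growth by median-ratio rescaling. Of all genes, 1275 were lower at 60 h over the union of exons. At 120 h 851 were higher with multi-exon transcripts alone, 505 (introns) and 262 (union of exons), and 313 lower with a minimum of 5 FPKM. At 168 h against 120 h 327 were higher with that minimum, and 520 (introns) and 328 (union of exons) lower.

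Among paralogue shares, in order of time, Hk2 had 16.0%, 30.3%, 27.6% and 25.4% by its introns, 17.4%, 31.7%, 27.4% and 25.2% by the union of exons, and 27.6% and 25.4% at 120 h and 168 h with multi-exon transcripts alone. By these 2 measures (introns, then union of exons) Pfkm had 27.8% and 25.8% in growth, 66.3% and 62.8% at 60 h, 73.2% and 71.6% at 120 h, and 80.6% and 80.2% at 168 h. By the same measures Pfkl had 38.8% and 42.3%, 22.4% and 24.9%, 17.7% and 19.7%, and 15.3% and 16.0%, and Pfkp had 33.4% and 31.9%, 11.2% and 12.3%, 9.2% and 8.7%, and 4.1% and 3.8%. Eno3 had 65.8% and 81.5%, 86.2% and 88.3%, 82.5% and 89.9%, and 89.4% and 92.5%, and Ldhb had 0.4% and 0.8%, 0.9% and 1.8%, 1.6% and 2.6%, and 5.2% and 6.2%. Pgam2 per annotated length and the shares of whole transcripts (77.2% for the internal Pfkm start and 79.5% for the long Eno3 exon) were chosen after seeing the data. Depth limits most the values of Ldhb and of Pgam2 in growth, with 188 and 208 fragments.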

Other observations

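The following members of the pathway lists were chosen after their values were seen. Tpi1, the triose phosphate isomerase gene, had 122, 260, 484 and 311.5 FPKM in the growth, 60 h, 120 h and 168 h libraries and rose at 60 h against growth. Pdk1, another kinase of pyruvate dehydrogenase, had 4.88, 15.5, 24.0 and 8.60 FPKM, so that it rose at 60 h against growth and fell at 168 h against 120 h, while Pdk2 had its highest level at 168 h. Gpd1, the cytosolic glycerol phosphate dehydrogenase gene, had 1.14, 4.45, 4.11 and 7.83 FPKM and rose at 60 h against growth.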
